A study of Mus musculus with 12 samples.

Results

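The 9 genes Alb, Afp, Pdx1, Nkx2-1, Onecut1, Prox1, Nkx6-1, Pax9 and Cdx2, which are used later by the liver, pancreas, thyroid, lung, pharynx and gut, were examined for accessible chromatin in mouse embryo cells at embryonic day 7.5, before these organs form. They are 9 of 21887 protein-coding genes. Peaks were given to a gene when it was the nearest protein-coding gene within 100 kb of the peak's midpoint (distance 0 inside the gene). The peaks of all lists merged into 99096 regions, of which 87329 were given to a gene and 60 to these 9. Accessibility was measured by ATAC-seq, in which a transposase cuts and tags open DNA.

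Every embryo was homozygous for FoxA2 fused to the red fluorescent protein tagRFP, on a mixed C57Bl6/J x CD-1 background. In dHx embryos the fusion lacked 10 residues of an alpha helix of FoxA2, and in WT embryos it was otherwise unchanged. Cells of pooled embryos, from which the extraembryonic part had been removed, were sorted on tagRFP into High (brighter than heterozygous cells), Middle (no brighter than they, but above autofluorescence) and Negative. There were 12 samples, 2 in each of 6 groups (dHx High, WT High, dHx Middle, WT Middle, dHx Negative and WT Negative), but each group was deposited as 1 peak list from pooled reads. There is thus no replicate value, no difference between lists was tested, and intervals are exact Clopper-Pearson 95% intervals that cover counting error only. The gates are FoxA2 levels, not cell types, and in such bulk lists fewer cells with an open site and a weaker opening in each cell cannot be told apart.

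FoxA factors bind their sites in closed chromatin, and the albumin enhancer in early endoderm is a classical example of a liver site occupied before the gene is active. Alb and Afp encode the main plasma proteins of the adult and the fetal liver, and Afp is also a product of the visceral endoderm. The other 7 genes encode transcription factors with roles in and outside the endoderm. Pdx1 marks the pancreas and duodenum, Onecut1 and Prox1 act in liver and pancreas (Prox1 also in lymphatic vessels), Nkx6-1 in beta cells and in the ventral neural tube, Nkx2-1 in thyroid, lung and ventral forebrain, Pax9 in pharyngeal pouches and sclerotome, and Cdx2 in the intestine, the trophectoderm and the posterior embryo.

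The start sites of these genes differ in sequence, which matters below because the presence of a peak at a start is set beside it. The 4 RefSeq promoter windows shown (GRCm38.p6, the assembly behind mm10, 250 bases before to 50 after the start, written 5′ to 3′ on the gene's strand, CpG dinucleotides in capitals) are those of the liver genes Alb and Afp, where a peak at the start was absent or rare, and of Nkx6-1 and Cdx2, where it was frequent. They lie at chr5:90460620-90460919 (plus strand, Alb), chr5:90490464-90490763 (plus, Afp), chr5:101664662-101664961 (minus, Nkx6-1) and chr5:147307200-147307499 (minus, Cdx2). A peak at the start is one within 1 kb of it and need not overlap the window shown. For Nkx6-1 a peak was at the start in 6 lists, but a peak overlapped the window in only 2, dHx Negative and WT Negative. For Cdx2 both held in 5 lists.
Alb: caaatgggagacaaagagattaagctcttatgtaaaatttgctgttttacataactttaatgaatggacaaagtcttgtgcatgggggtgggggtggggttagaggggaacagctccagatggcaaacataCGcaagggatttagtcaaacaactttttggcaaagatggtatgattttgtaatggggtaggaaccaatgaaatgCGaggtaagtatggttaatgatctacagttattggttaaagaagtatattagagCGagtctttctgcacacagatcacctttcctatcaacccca
Afp: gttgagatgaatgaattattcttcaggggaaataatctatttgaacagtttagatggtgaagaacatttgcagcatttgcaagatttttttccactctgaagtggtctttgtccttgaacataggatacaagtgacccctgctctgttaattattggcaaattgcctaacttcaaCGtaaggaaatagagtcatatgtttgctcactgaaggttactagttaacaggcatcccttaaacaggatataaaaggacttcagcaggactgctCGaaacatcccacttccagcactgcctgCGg
Nkx6-1: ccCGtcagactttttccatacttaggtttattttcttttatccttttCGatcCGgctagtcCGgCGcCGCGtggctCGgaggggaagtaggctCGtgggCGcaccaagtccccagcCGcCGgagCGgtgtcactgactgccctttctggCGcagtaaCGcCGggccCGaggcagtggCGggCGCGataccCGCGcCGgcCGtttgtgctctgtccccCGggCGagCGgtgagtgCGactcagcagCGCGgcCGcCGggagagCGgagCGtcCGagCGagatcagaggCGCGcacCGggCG
Cdx2: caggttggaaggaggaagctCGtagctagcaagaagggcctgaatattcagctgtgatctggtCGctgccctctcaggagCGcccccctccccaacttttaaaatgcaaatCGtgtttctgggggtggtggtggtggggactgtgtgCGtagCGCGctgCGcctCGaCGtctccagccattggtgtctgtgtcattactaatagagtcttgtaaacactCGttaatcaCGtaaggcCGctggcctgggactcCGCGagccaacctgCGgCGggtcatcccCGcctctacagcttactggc

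The Alb and Afp windows each held 3 CpG, with an observed-to-expected ratio of 0.27 for Alb and 0.25 for Afp. The Nkx6-1 window held 40 CpG (ratio 1.18) and the Cdx2 window 18 (ratio 0.73). The windows shown do not stand for all 9 genes. Onecut1 held 38 CpG (ratio 0.95) but had a peak at the start in only 3 lists. Pax9 held 11 (ratio 0.68) and had one in 6 lists. Prox1, with 25 CpG (ratio 0.81), had one in 6 lists. Pdx1 (11 CpG, ratio 0.48) and Nkx2-1 (12 CpG, ratio 0.56) had one in 4 lists each. Searched on both strands, the forkhead variant TGTTTGC was found once each in the Alb, Afp and Pax9 windows (at positions -128, -55 and -52 from the start) and in 4.56% of all 17492 windows. TGTTTAC was found in the Cdx2 window only (position -40) and in 2.94% of all windows, and TATTTAC in none of the 9 and 2.63% of all. The homeobox letters TAATTA were in the Afp window (4.68% of all windows), and AGATAA, the GATA letters, in none of the 9 (9.96% of all). These matches describe the letters and show no binding.

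The liver genes and the transcription factor genes differed in where their peaks were found. Of the 6 regions of Alb and Afp, 5 held a peak in RFP-positive lists (High or Middle) and in no Negative list, and 1 was in a Negative list alone. Of the 54 regions of the 7 transcription factor genes, 10 (18.5%) were in RFP-positive lists alone, 18 (33.3%) in Negative lists alone and 26 in both kinds. This split by role was made after the values were seen. Over all 60 regions, 15 (25.0%, 14.7 to 37.9) were in RFP-positive lists alone, against 39.3% of all regions given to a gene. Negative lists alone held 19 (31.7%, 20.3 to 45.0), against 19.5% of all regions, and 26 (43.3%, 30.6 to 56.8) were in both kinds, against 41.2%. For both classes found on 1 side alone, the share over all regions lay just outside the interval of the 9 genes. Here and below, the intervals treat regions or peaks as independent, though each gene gave 3 to 10 of the 60 regions. In a split by genotype, chosen after seeing the data, both genotypes stood on the same side of the share over all regions as the 60 regions did. Within dHx lists 9 of 50 regions (18.0%, 8.58 to 31.4) were in High or Middle and not in Negative, against 32.8% of all regions, and 21 (42.0%, 28.2 to 56.8) in Negative alone, against 27.6%. Within WT lists 18 of 44 (40.9%, 26.3 to 56.8) were in High or Middle and not in Negative, against 48.7%, and 10 (22.7%, 11.5 to 37.8) in Negative alone, against 13.9%. The share over all regions lay outside both dHx intervals and inside both WT intervals.

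**Figure D1:**
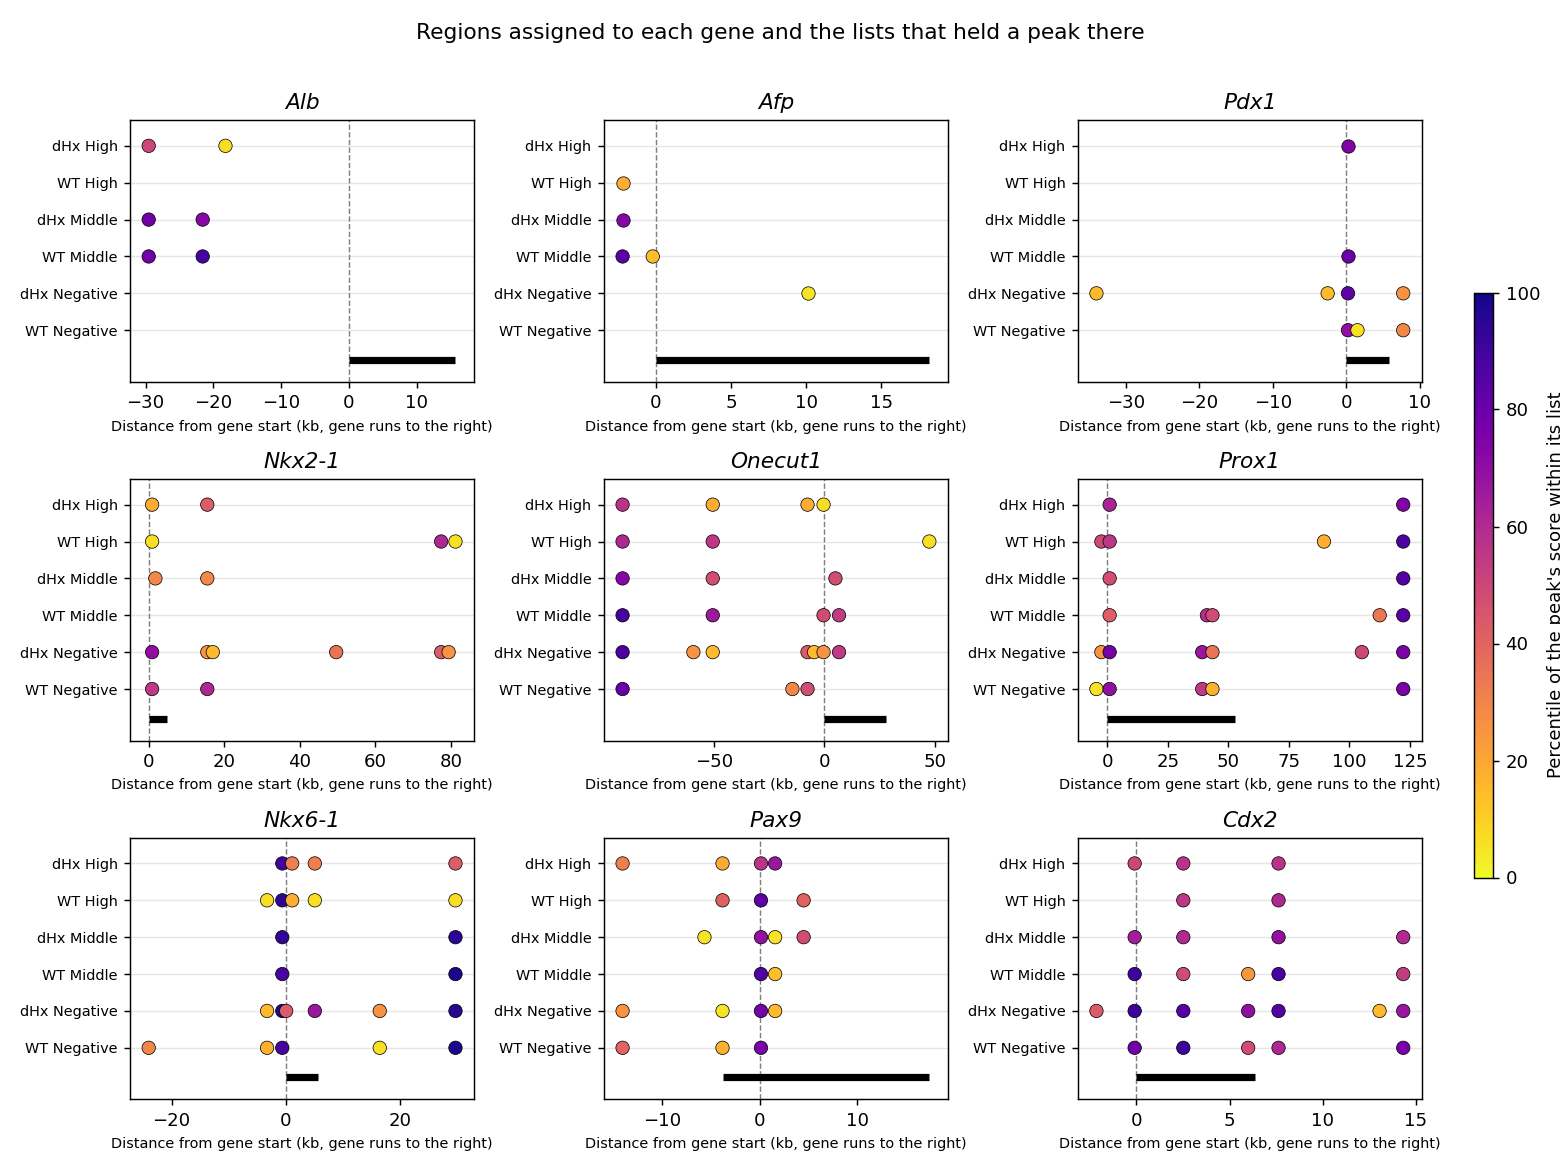
Regions of each gene by midpoint distance from the gene start in kb (x) and by peak list (y), with the gene as a black bar. A point is a region with at least 1 peak in that list, and its colour the percentile of the region's best score within the list. The Alb points all lie upstream and in dHx High, dHx Middle and WT Middle rows, while Cdx2, Pax9, Prox1, Nkx6-1 and Onecut1 have columns with a peak in all 6 rows.

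Percentiles rank a peak by the authors' score within its own list (100 is the strongest), and percentiles of different lists show no change between them. At Alb, dHx High held 2 peaks, WT High 0, dHx Middle 2, WT Middle 2, dHx Negative 0 and WT Negative 0. Neither Negative list held any peak nearest to Alb, and among the RFP-positive lists WT High lacked one. The region 29.5 kb upstream (chr5:90431065-90431610) held peaks in dHx High (50.3rd percentile), dHx Middle (78.4) and WT Middle (78.3). The region 21.6 kb upstream (chr5:90439106-90439496) held peaks in dHx Middle (72.5) and WT Middle (88.9) alone. The last Alb region, 18.2 kb upstream, was in dHx High alone at the 6.29th percentile. The next nearest protein-coding gene to all 3 was Afp, 48.1 to 59.4 kb away. No list held a peak between that region and the Alb start, or inside Alb.

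Afp had 0 peaks in dHx High, 1 in WT High, 1 in dHx Middle, 2 in WT Middle, 1 in dHx Negative and 0 in WT Negative. The region 2.22 kb upstream of its start (chr5:90488313-90488682) was present in dHx Middle (72.5th percentile), WT Middle (84.1) and, near the bottom of its list, WT High (18.0). A weak peak 0.21 kb upstream of the start was in WT Middle alone (14.0), and the one peak of a Negative list lay inside the gene at the 4.74th percentile of dHx Negative. Of the 6 regions of the 2 liver genes, 3 were thus in both Middle lists (27.8% of all regions), 0 in both High lists (27.0%) and 0 in both Negative lists (28.4%).

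Loci of the visceral endoderm, which also makes Afp, were richest in the Middle lists as well. Its 15 listed genes had 27 peaks in dHx High, 32 in WT High, 45 in dHx Middle, 51 in WT Middle, 26 in dHx Negative and 23 in WT Negative. Hnf4a, a nuclear receptor of liver and visceral endoderm, had 1 and 2 peaks in dHx and WT High, 7 and 5 in dHx and WT Middle and 0 in both Negative lists. The endocytic receptors Cubn and Lrp2 were among the 3 listed genes with more peaks per list in Negative lists. Cubn had 2, 4, 4 and 5 peaks in dHx High, WT High, dHx Middle and WT Middle, against 7 and 2 in dHx and WT Negative, and Lrp2 had 4, 2, 3 and 5 against 5 and 3. Richness in the Middle lists was not particular to the visceral endoderm list. The 17 listed genes of the liver programme, some of them in both lists, were richest there too. They had 65 peaks in dHx High, 77 in WT High, 82 in dHx Middle, 82 in WT Middle, 50 in dHx Negative and 42 in WT Negative. The part of visceral endoderm cells in the Alb and Afp result was not tested.

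Per list, the 9 genes together had 23 peaks in dHx High, 23 in WT High, 20 in dHx Middle, 24 in WT Middle, 42 in dHx Negative and 28 in WT Negative. The 4 RFP-positive lists thus lay between 20 and 24, below both Negative lists. Set against the peaks given to any gene, this was 6.73 per 10000 (4.26 to 10.1) in dHx High, 5.61 (3.56 to 8.42) in WT High, 5.60 (3.42 to 8.65) in dHx Middle, 5.47 (3.50 to 8.13) in WT Middle, 9.25 (6.67 to 12.5) in dHx Negative and 7.81 (5.19 to 11.3) in WT Negative. All these intervals overlap one another. With every list shortened to its strongest 37129 peaks, the length of the shortest, the counts were 23, 14, 20, 21, 28 and 26 in the same order of lists, so the Negative lists stayed the highest, but WT High had 14 and dHx Negative 28. With the stronger 50% of each list the counts were 9, 10, 13, 16, 18 and 15, and WT Middle then stood above WT Negative.

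**Figure D2:**
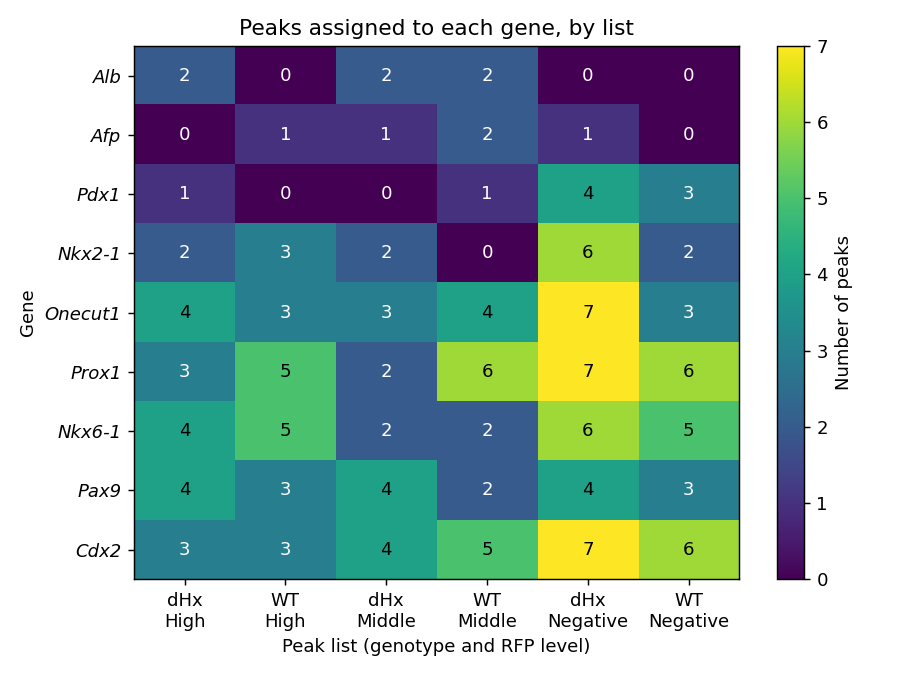
Number of peaks given to each of the 9 genes (rows) in each of the 6 lists (columns, dHx left of WT at each RFP level). Cdx2, Onecut1 and Prox1 reach 7 peaks in dHx Negative, and Alb has peaks in 3 of the RFP-positive lists and none in the Negative lists.

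With both genotypes together, all 7 transcription factor genes had fewer peaks per list in the RFP-positive than in the Negative lists, and Alb and Afp had more. Over all protein-coding genes 35.3% had more in RFP-positive lists and 36.0% more in Negative lists. The remaining 6293 of 21887 genes had equal numbers, those without any peak included, so these 2 shares are low for genes with peaks. The genotypes did not give the same directions for every gene. Within dHx lists Alb alone had more, Pax9 was equal and the other 7 genes, Afp included, had fewer (24.2% of all genes had more and 37.9% fewer). Within WT lists Alb, Afp and Onecut1 had more and the other 6 fewer (39.7% and 23.7% of all genes). With WT High alone set against WT Negative, only Pdx1, Prox1 and Cdx2 had fewer. Afp and Nkx2-1 had more there, and Alb, Onecut1, Nkx6-1 and Pax9 were equal. Over all 21887 genes, 6749 had more in WT High and 4466 fewer. The lists differ in length, from 37129 peaks in dHx High to 50424 in dHx Negative, and in the background that was fitted to the low scores as a stand-in for depth. That background was 0.476 in dHx High, 0.880 in WT High, 0.786 in dHx Middle, 1.50 in WT Middle, 1.57 in dHx Negative and 1.08 in WT Negative, in mean pileup per base. It is a pileup only if the score, whose column is unnamed, is a −log10 p-value and not a q-value. The part of depth in these counts was not tested, and a region without a peak is not shown to be closed.

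Pdx1 had 1 peak in dHx High, 0 in WT High, 0 in dHx Middle, 1 in WT Middle, 4 in dHx Negative and 3 in WT Negative. Its start (chr5:147269950-147270680) held a peak in dHx High (74.3rd percentile), WT Middle (80.0), dHx Negative (83.2) and WT Negative (69.3), so it was not limited to one RFP level or genotype. The other 4 Pdx1 regions were in Negative lists alone, as were 19.5% of all regions. The 1 in both Negative lists (chr5:147277221-147278448, 1.99 kb beyond the gene) ranked low, at the 25.7th percentile in dHx Negative and the 29.2nd in WT Negative. This region lay 23.1 kb from Cdx2, the next gene.

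Cdx2 had 3 peaks in dHx High, 3 in WT High, 4 in dHx Middle, 5 in WT Middle, 7 in dHx Negative and 6 in WT Negative. It was the most densely covered of the 9, with 13.0, 13.0, 17.4, 21.7, 30.4 and 26.1 peaks per 100 kb of nearest territory in the same order of lists. All genes together had 1.79 to 2.38, but the territory of Cdx2 was only 23 kb. A region inside the gene (chr5:147304038-147305428) and one 1.28 kb beyond its end (chr5:147299043-147300201) held a peak in all 6 lists. The start region (chr5:147306922-147307757) held one in dHx High (50.3rd percentile), dHx Middle (64.8), WT Middle (90.8), dHx Negative (91.3) and WT Negative (78.5), and none in WT High. Farther out, 7.97 kb beyond the gene end, a region was in both Middle and both Negative lists and in neither High list.

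Nkx6-1 had 4 peaks in dHx High, 5 in WT High, 2 in dHx Middle, 2 in WT Middle, 6 in dHx Negative and 5 in WT Negative, so that the Middle lists were the lowest. The region 0.64 kb upstream of its start (chr5:101664942-101665766) was in all 6 lists and ranked between the 88.3rd percentile (WT Negative) and the 97.0th (dHx Negative), and no other of the 60 regions had a lowest rank above that 88.3. The other region in all 6 lists (chr5:101633862-101636282, 24.1 kb beyond the gene end) was the widest of the 60, at 2421 bp. There the peak was 1102 bp wide in dHx High and 250 bp in WT High, but 2375 bp in dHx Middle, 1978 in WT Middle, 1979 in dHx Negative and 2351 in WT Negative. Its score stood at the 42.2nd percentile in dHx High and the 6.00th in WT High, against 95.4 in dHx Middle, 97.9 in WT Middle, 95.7 in dHx Negative and 97.7 in WT Negative. A region inside the gene 1.08 kb from the start (chr5:101663401-101663860) was in both High lists alone, with percentiles of 31.5 (dHx) and 18.0 (WT).

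Prox1 had 3 peaks in dHx High, 5 in WT High, 2 in dHx Middle, 6 in WT Middle, 7 in dHx Negative and 6 in WT Negative. Its start (chr1:190168731-190171040) and a region 69.4 kb beyond the gene end (chr1:190048218-190049052) held peaks in all 6 lists. The distant one ranked from the 74.3rd percentile in dHx High to the 87.0th in WT High. Prox1 was the only one of the 9 with no other protein-coding gene within 100 kb of any of its regions. Inside the gene, 39.2 kb from the start, a region (chr1:190131508-190131832) was in dHx Negative (66.8) and WT Negative (54.8) and in no RFP-positive list.

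Onecut1 had 4 peaks in dHx High, 3 in WT High, 3 in dHx Middle, 4 in WT Middle, 7 in dHx Negative and 3 in WT Negative. A region 91.1 kb upstream (chr9:74770650-74771032) was in all 6 lists. The one 50.4 kb upstream (chr9:74811117-74811933) was in all 4 RFP-positive lists, at the 19.0th percentile in dHx High, 55.5th in WT High, 47.4th in dHx Middle and 66.2nd in WT Middle. It was also in dHx Negative at the 14.9th percentile, and not in WT Negative. With lists of equal length it was absent from dHx Negative too. The start region, 0.41 kb upstream, was in dHx High, WT Middle and dHx Negative, ranking from 6.29 to 48.3.

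Pax9 had 4 peaks in dHx High, 3 in WT High, 4 in dHx Middle, 2 in WT Middle, 4 in dHx Negative and 3 in WT Negative, with little order by RFP level. The annotated gene begins at -3.78 kb from its listed start, and the region at that start (chr12:56695038-56696209) held a peak in all 6 lists, from the 56.8th percentile in dHx High to the 86.3rd in WT Middle. A second region 1.60 kb past that start was in dHx High (67.1), dHx Middle, WT Middle and dHx Negative. None of the 6 Pax9 regions was in Negative lists alone, against 19.5% of all regions.

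Nkx2-1, on the same chromosome, had 2 peaks in dHx High, 3 in WT High, 2 in dHx Middle, 0 in WT Middle, 6 in dHx Negative and 2 in WT Negative. No Nkx2-1 region was in more than 4 lists. The region inside the gene 0.90 kb from the start (chr12:56535670-56536343) was in dHx High (19.0), WT High (6.00), dHx Negative (69.8) and WT Negative (54.8) and in neither Middle list. Of its 8 regions 5 were in 1 list alone (43.9% of all regions were), 3 of them in dHx Negative (25.0% of all regions in 1 list).

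Peaks within 1 kb of a start were counted apart from the rest, since a start is fixed by the annotation and not by nearness. A start peak was found at 7 of the 9 genes in dHx High (58.3% of the 17492 genes with a listed start), at 4 in WT High (57.2%), at 4 in dHx Middle (53.2%), at 7 in WT Middle (53.5%), at 7 in dHx Negative (58.7%) and at 6 in WT Negative (54.3%). Prox1, Nkx6-1 and Pax9 had one in all 6 lists, Cdx2 in 5, Pdx1 and Nkx2-1 in 4, Onecut1 in 3, Afp in WT Middle alone and Alb in none. Windows were called CpG-rich where the observed-to-expected ratio was at least 0.6 and the GC share at least 50%. Of 7998 CpG-rich promoters 68.1% had a start peak in all 6 lists and 3.10% in none, and 4 of the 9 genes were of this class (Onecut1, Prox1, Nkx6-1 and Cdx2). Of 9494 CpG-poor promoters 19.2% had one in all 6 lists and 56.2% in none, and Alb, Afp, Pdx1, Nkx2-1 and Pax9 were of that class. Pax9, with a ratio of 0.68, missed the first class by its GC share of 47.0%.

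**Figure D3:**
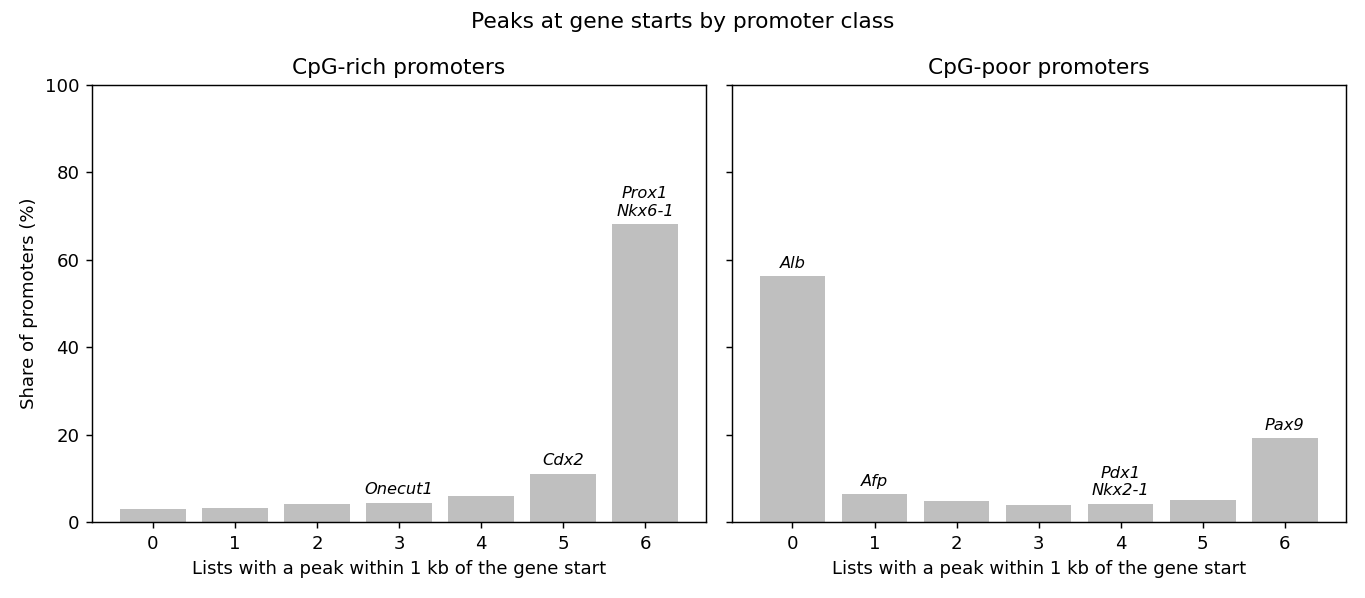
Share of CpG-rich (left) and CpG-poor (right) promoters in percent (bars) by the number of lists with a peak within 1 kb of the gene start, with each of the 9 genes written above its own bar. Alb stands at 0 lists and Afp at 1 among CpG-poor promoters, and Prox1 and Nkx6-1 at 6 lists among CpG-rich ones.

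No region of the 9 genes combined a peak in each of the 4 RFP-positive lists with none in the Negative lists (0 of 60, upper limit of the interval 5.96%), a pattern held by 2.04% of all regions. Within dHx lists 1 of 50 regions, of Alb, was in High and Middle and not in Negative, and within WT lists 2 of 44 were, of Afp and Onecut1. For this pattern within a genotype no share over all regions was taken, so these counts cannot be called few or many. The opposite pattern, both Negative lists and no RFP-positive list, held for 3 of 60 regions (5.00%, 1.04 to 13.9), against 2.72% of all regions. They were the regions of Pdx1 and Prox1 given above and one 10.9 kb beyond the end of Nkx6-1, at the 25.7th percentile in dHx Negative and the 5.47th in WT Negative. A peak in all 6 lists was found at 8 regions (13.3%, 5.94 to 24.6), against 14.8% of all, and a peak in all 4 RFP-positive lists at 9 (15.0%, 7.10 to 26.6), against 18.8%. In 1 list alone were 26 regions (43.3%, 30.6 to 56.8), against 43.9% of all, and 12 of the 26 (46.2%) were in dHx Negative, against 25.0% of all regions in 1 list. Regions in 1 list were narrow, with a median width of 292 bp, and those in all 6 had a median of 1166 bp. Over all regions these medians were 289 and 1044 bp. A region joins the overlapping peaks of all lists, so its width can grow with the number of lists by construction.

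The pairwise comparison of High with Negative cells asked how many peaks of one list had no overlapping peak in the other. In dHx embryos 3 of 23 High peaks lacked a Negative counterpart (13.0%, 2.78 to 33.6), 2 of Alb and 1 of Nkx6-1, against 37.7% over all genes. Among all shares of this kind given here, it was the one whose interval left out the share over all genes. With lists of equal length it was 30.4%. Conversely, 22 of 42 Negative peaks lacked a High counterpart (52.4%, 36.4 to 68.0), against 52.3%. In WT embryos 10 of 23 High peaks of the 9 genes lacked a Negative counterpart (43.5%, 23.2 to 65.5), against 47.4% over all genes, and 16 of 28 Negative peaks lacked a High counterpart (57.1%, 37.2 to 75.5), against 39.7%.

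For Middle cells of dHx embryos, 7 of 20 Middle peaks lacked a Negative counterpart (35.0%, 15.4 to 59.2), against 38.1%, with 2 each of Alb and Pax9 and 1 each of Afp, Nkx2-1 and Onecut1. There 28 of 42 Negative peaks lacked a Middle counterpart (66.7%, 50.5 to 80.4), against 51.2%. In WT embryos 10 of 24 Middle peaks lacked a Negative counterpart (41.7%, 22.1 to 63.4), against 49.5% over all genes, and they included 3 of Onecut1 and 2 each of Alb, Afp and Prox1. Conversely, 13 of 28 WT Negative peaks lacked a Middle counterpart (46.4%, 27.5 to 66.1), against 38.5%.

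**Figure D4:**
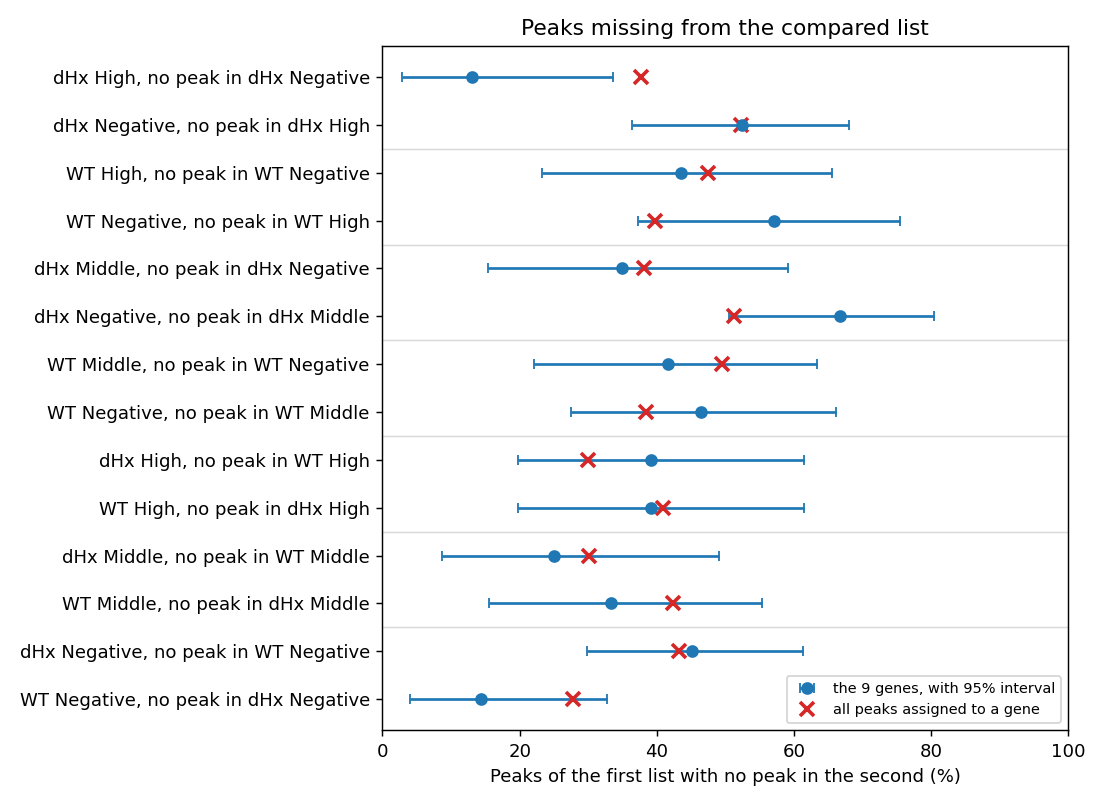
Share of peaks of the first-named list with no overlapping peak in the second (x, percent) for the 9 genes (points with Clopper-Pearson 95% intervals) and for all peaks given to a gene (crosses). The cross lies outside the interval for dHx High against dHx Negative, where the 9 genes stand at 13.0% and all genes at 37.7%.

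The helix deletion was compared at each RFP level. At High RFP, 9 of 23 dHx peaks (39.1%, 19.7 to 61.5) had no WT peak, against 30.0% over all genes, and 9 of 23 WT peaks (39.1%) had no dHx peak, against 40.9%. The dHx-only peaks included 2 each of Alb, Onecut1 and Pax9, and the WT-only peaks 2 each of Nkx2-1 and Prox1. At Middle RFP, 5 of 20 dHx peaks (25.0%, 8.66 to 49.1) had no WT peak, against 30.1%, and 8 of 24 WT peaks (33.3%, 15.6 to 55.3) had no dHx peak, against 42.4%. Both Alb regions of the Middle lists and the upstream Afp region were shared by dHx and WT. At Negative RFP, 19 of 42 dHx peaks (45.2%, 29.8 to 61.3) had no WT peak, against 43.3%, and 4 of 28 WT peaks (14.3%, 4.03 to 32.7) had no dHx peak, against 27.8%. The interval of the 9 genes held the share over all genes in all of these genotype comparisons, and the dHx list had the lower background at High and Middle RFP and the higher at Negative.

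Other genes of the organ programmes, in lists that overlap in some genes, gave a wider frame. In the liver list 14 of 17 genes had more peaks per list in RFP-positive than in Negative lists and 3 had fewer (82.4% and 17.6%, against 35.3% and 36.0% of all genes). All 17 had a peak in at least 1 list, as did 18500 of the 21887 genes behind these last shares. Foxa1, the close relative of Foxa2, had 8, 6, 6 and 5 peaks in dHx High, WT High, dHx Middle and WT Middle, against 2 and 1 in dHx and WT Negative. Tbx3 and Dlk1 went the other way, Dlk1 with 6, 5, 3 and 6 against 9 and 6. For comparison Foxa2 itself had 16, 16, 20 and 19 against 15 and 11.

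In the pancreas list 5 of 15 genes had more peaks in RFP-positive lists and 8 fewer. Sox9, a factor of pancreas progenitors and cartilage, had 9, 6, 6 and 8 peaks in dHx High, WT High, dHx Middle and WT Middle, against 12 and 11 in dHx and WT Negative. Neurog3, the switch to endocrine cells, had 0, 1, 3 and 0 against none. In the thyroid, lung and pharynx list 5 of 17 had more and 8 fewer, with Hhex (2, 3, 5 and 3 against 1 and 1) among those with more and Pax1 (6, 4, 1 and 1 against 7 and 5) among those with fewer. The gut tube list had 8 of 17 with more and 9 with fewer, with Shh at 5, 6, 4 and 3 against 2 and 1 and Fabp1, a fatty acid binding protein of liver and intestine, at 0, 3, 0 and 2 against none. Among those with fewer, Isx, an intestinal homeobox factor, had 1, 2, 3 and 2 against 6 and 1, and Barx1, a factor of the stomach mesenchyme, 4, 0, 1 and 0 against 4 and 1. In the visceral endoderm list 12 of 15 had more and 3 fewer. With High alone set against Negative, 8 gut tube genes had more and 4 fewer in dHx, and 9 and 4 in WT. The pancreas list had 5 and 5 in dHx, and 4 and 6 in WT. For the thyroid, lung and pharynx list these counts were 6 and 7 in dHx, and 6 and 6 in WT. Over all 21887 genes, 4086 had more and 7117 fewer in dHx, and 6749 and 4466 in WT.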

How the data were processed

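ATAC-seq peak lists of 6 groups (2 samples each, grouped by title) on mm10 were used. STAR 2.5.2a and MACS2 are named, per the submitters' processing notes, without roles or settings. Per the peak names in the deposited files, reads of a group were pooled. The authors' deposited peak score, in an unnamed column, was taken to be a −log10 p-value (or q-value). This was inferred from its values. The score was used to rank or filter within a list and, read as a Poisson p-value, to fit the background of each list. Without read totals per list, a Poisson mean was fitted to the 40 lowest distinct scores of each list.

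Lines with the same start and end were merged, and an overlap of at least 1 bp counted as shared. Genes and starts came from RefSeq (GRCm38.p6), where exons were not used. A tie between genes went to the shorter one, and ties in score to genome order. Python 3.11.15, pandas 2.3.3 and scipy 1.17.1 were used, and assignment and overlap were tested on simulated data. No test between groups was possible. The 9 genes and the 8 other lists (104 genes) were chosen with earlier results of these data known. All 9 genes are named. From each other list the rule named up to 2 genes with the most and up to 2 with the fewest peaks in RFP-positive minus Negative lists, of which the text prints a part; some genes are not reported here. Titles and replicate tags number the dHx Middle samples differently.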

Additional observations from a re-analysis of the deposited data

Results flagged for a closer look

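Differences of High or Middle from Negative were compared between the 2 genotypes, and differences of dHx from WT between High and Negative RFP only. A gene was singled out where the 2 differences had opposite signs. Differences of dHx from WT at Middle RFP were not screened. There Prox1 (2 against 6), Onecut1 (3 against 4), Cdx2 (4 against 5), Pdx1 (0 against 1) and Afp (1 against 2) had fewer peaks in dHx. These genes had more in dHx at Negative RFP. Each difference is between single lists, and none was tested. Nkx2-1 had 4 fewer peaks in High than in Negative in dHx embryos (2 against 6) and 1 more in WT embryos (3 against 2), so that the effects differed by -5. Likewise it had 1 peak fewer in dHx than in WT at High RFP (2 against 3) and 4 more at Negative RFP (6 against 2), again a difference of -5. Onecut1 had 4 fewer peaks in dHx Middle than in dHx Negative (3 against 7) and 1 more in WT Middle than in WT Negative (4 against 3), a difference of -5. Prox1 had 2 fewer peaks in dHx than in WT at High RFP (3 against 5) and 1 more at Negative RFP (7 against 6), a difference of -3. Nkx6-1 had 1 fewer at High RFP (4 against 5) and 1 more at Negative RFP (6 against 5), a difference of -2. Afp had 1 fewer in dHx High than in dHx Negative (0 against 1) and 1 more in WT High than in WT Negative (1 against 0), a difference of -2 both ways of pairing the 4 lists. In each of these comparisons between genotypes, dHx had the lower fitted background at High RFP and the higher at Negative RFP (0.476 against 0.880, and 1.57 against 1.08). The part of depth in these differences was not tested.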

How the results depend on the processing

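No paired analysis was possible because each group was deposited as 1 list of pooled samples, and for the same reason no replicate could be left out. Of 158 alternative values 135 lay within the interval of the reported share, or within 1.5 times the reported count, and 23 did not. An overlap of 50% of the shorter peak, a limit of 50 kb, the nearest peak edge and a start window of 500 bp moved none. The stronger 50% of each list, which by construction holds fewer peaks, gave 9 peaks in dHx High, 10 in WT High, 13 in dHx Middle, 16 in WT Middle, 18 in dHx Negative and 15 in WT Negative, which puts WT Middle above WT Negative, with 5 regions in all 6 lists, 9 in RFP-positive lists alone, and 4 starts each in dHx High and WT Middle. There 22.2% of dHx Negative peaks had no WT Negative peak and 38.9% no dHx Middle peak. Equal list lengths gave 14 peaks in WT High and 1 region, of Onecut1, in all 4 RFP-positive lists and no Negative list. With every gene within 100 kb, which adds peaks by construction, WT High had 35, WT Middle 37 and WT Negative 46 peaks, 24 regions were in RFP-positive lists alone and 7 in both Negative lists alone. In splits chosen after seeing the data, dHx lists alone gave 50 regions, of which 1 was in High and Middle and not in Negative. There 21 (42.0%, against 27.6% of all regions) were in Negative alone and 9 (18.0%, against 32.8%) in High or Middle and not in Negative. WT lists alone gave 44, of which 2 were in High and Middle and not in Negative. There 10 (22.7%, against 13.9%) were in Negative alone and 18 (40.9%, against 48.7%) in High or Middle and not in Negative. Each of the last 2 classes thus lay on the same side of the share over all regions in both genotypes. Beyond the smaller number of lists or peaks, the cause was not tested. The depth of each list limits how weak a peak it can hold, and read totals were not used here.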

Other observations

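Loci of mesoderm, neural plate and trophoblast, tissues in which several of the 7 transcription factors also act, had mostly fewer peaks in RFP-positive than in Negative lists. In the lateral and cardiac mesoderm list 4 of 15 genes had more and 9 fewer. Meis2, a homeobox factor, had 15, 9, 11 and 10 peaks in dHx High, WT High, dHx Middle and WT Middle, against 21 and 15 in dHx and WT Negative. Pdgfra, a growth factor receptor, went the other way with 5, 5, 4 and 9 against 4 and 2. In the neural plate list 4 of 14 had more and 9 fewer, with Zic1 at 0, 1, 2 and 1 against 4 and 6, while Hesx1 had 3, 2, 2 and 3 against 1 and 1 and Six3 had 6, 9, 5 and 2 against 5 and 4. In the trophoblast list, whose tissue shares Cdx2, 2 of 9 had more and 6 fewer, with Tfap2c at 2, 2, 2 and 2 against 10 and 6, while Esrrb had 4, 5, 5 and 5 against 2 and 3. Over all genes 35.3% had more and 36.0% fewer, and the rest, those without any peak included, had equal numbers.

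Among the 104 other listed genes, the one whose 6 peak counts were closest to those of Nkx6-1 was Lhx2, a homeobox factor of the forebrain and eye, with 4, 6, 3 and 2 against 6 and 5 (sum of absolute differences 2). Closest to Cdx2 was Tead4, a factor of the trophectoderm, with 5, 3, 4 and 6 against 7 and 6 (sum 3). Closest to Prox1 were Dlk1 and Tead4 (sum 6 each). These sums rest on 6 counts per gene and describe the lists only.

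Of the 60 regions 42 lay within 100 kb of at least 1 other protein-coding gene, among them all regions of Alb, Afp, Pdx1, Nkx6-1, Pax9 and Cdx2. Which gene such a region serves is not measured by ATAC-seq.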
